A study of Mus musculus with 8 samples.

Results

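The 10 genes described here encode proteins of the BCL2 family, the regulators of mitochondrial apoptosis, and were chosen by symbol (Bcl2, Bcl2l1, Bcl2l10, Mcl1, Bax, Bak1, Bid, Bad, Bok and Bbc3). All 10 were found among the 25574 genes of the deposited table. The libraries came from oocytes of 8 weeks old CD1 mice, isolated 46 h after 5 IU of pregnant mare serum gonadotropin in 100 µM IBMX, which holds meiosis at the germinal vesicle stage, and then cultured for 180 min without it, past nuclear envelope breakdown (NEBD). Every oocyte pool, in both datasets, was treated with 0.1 mg/mL cycloheximide for 10 min, which holds ribosomes on mRNA. Lysates of 200 pooled oocytes were separated into 10 fractions on sucrose gradients, and the RNA of the non-polysomal (NP) and of the polysomal (P) fractions was depleted of ribosomal RNA, amplified and sequenced as 4 libraries each. The NP pool covered the peaks of ribosomal subunits and of single ribosomes as well as stored mRNA. The top fraction of the gradient was in neither pool, and the study could not exclude that it held some stored mRNA.

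BCL2 family proteins act at the outer mitochondrial membrane. Anti-apoptotic members (encoded by Bcl2, Bcl2l1 and Mcl1) bind and restrain the pore-forming members BAX and BAK, to which the pore former BOK is related. The BH3-only members (BID, BAD and PUMA, the product of Bbc3) relay death signals by binding the other proteins. Most oocytes of a mouse ovary are lost by cell death, and a fully grown oocyte makes no new mRNA during maturation, so that its proteins come from stored transcripts that are moved onto or off polysomes. The comparison of P with NP asks which of the stored transcripts were associated with polysomes at NEBD.

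Values are FPKM, a read density scaled for gene length and for the reads of the library, and can therefore be compared between genes. For most genes the values are whole multiples of 1 step, set by gene length and by the depth used for scaling the library. That depth, recovered from the values, ranged from 1299377 to 7594637 for NP libraries and from 2677946 to 4699328 for P libraries. Each library was scaled to its own total, so a level describes a transcript relative to the other RNA of its fraction, and how much mRNA each fraction held was not measured here. Of the 12 oocyte marker genes listed, all 12 had an FPKM above 0.1 in 7 libraries and 11 did in P replicate 2, with sums from 7111 to 14510 FPKM in NP libraries and from 9186 to 38523 FPKM in P libraries. The 12 marker genes of cumulus and granulosa cells summed to 15.3 to 94.4 FPKM in NP libraries and 3.27 to 64.0 FPKM in P libraries, with 7 to 10 of the 12 at 0 in a library and Foxl2, Inhba, Has2 and Fst at 0 in all 8. Cyp19a1 (6.07 to 75.2 FPKM in NP, 0.190 to 62.6 in P) and Nr5a2 (8.43 to 61.4 in NP, 0.487 to 35.9 in P) were above 0 in all 8. The part of cumulus and granulosa cells in the results was not tested. The labels number the libraries as replicates 1 to 4 of each dataset, and the study calls them biological replicates. Each gradient gave an NP and a P pool, but no source used here states that a shared number marks a shared gradient, and the tests treat the 8 libraries as independent unless pairs are named.

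Bcl2l10 was by far the most abundant family transcript with overlapping levels in NP and P, Bcl2l1 was far below it, with Bid above Bcl2l1 in NP replicates 1 and 3, and the members other than these lay between 0 and 22.3 FPKM. Of the 7 family genes that passed the filter (a mean above 0.1 FPKM in NP or in P), 0 passed the test between P and NP (limma, Benjamini-Hochberg adjusted p below 0.1), a threshold passed by 3 of the 14292 genes tested (0.021%). At an unadjusted p below 0.05, 1422 genes (9.95%) were found, 1354 higher in NP (9.47%) and 68 higher in P (0.476%), and 2 of the 7 family genes, Mcl1 and Bad, both higher in NP. These were also the 2 family genes whose libraries did not overlap, which held for 897 of all genes tested (6.28%).

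**Figure D1:**
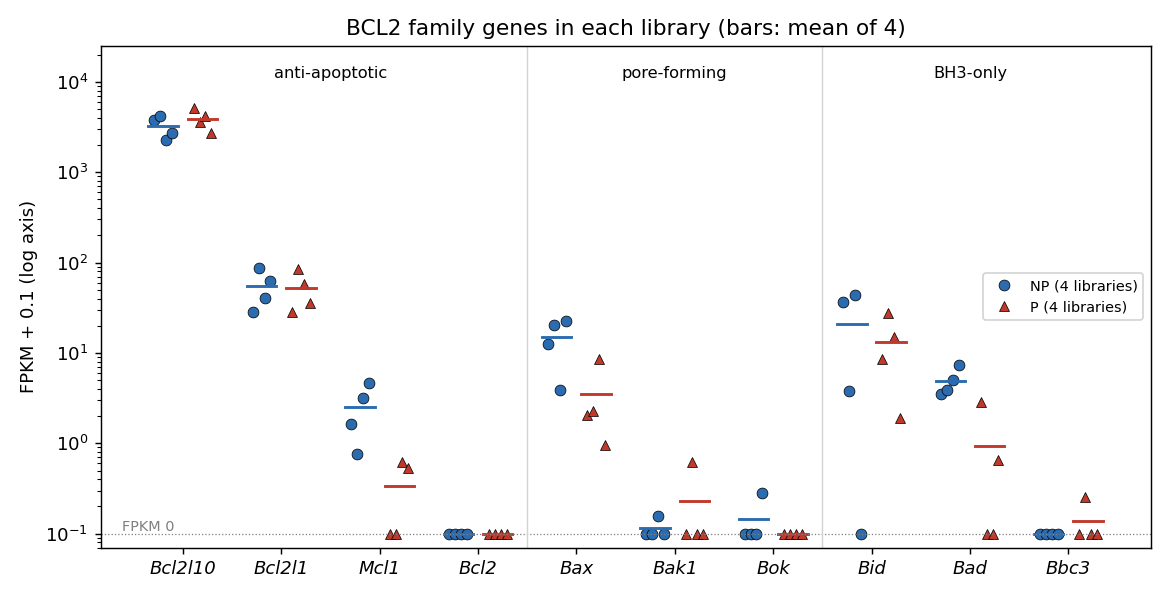
FPKM + 0.1 (log axis) of the 10 BCL2 family genes in the 4 NP libraries (blue circles) and the 4 P libraries (red triangles), with bars at the mean of 4 libraries and a dotted line at an FPKM of 0. Bcl2l10 lies at 2286 FPKM or above in all 8 libraries, Mcl1 and Bad are the genes whose NP and P libraries do not overlap, and Bcl2 is at 0 throughout.

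Bcl2l10, on chromosome 9 of GRCm38 from 75347758 to 75351632 on the plus strand, encodes an anti-apoptotic-type member found mainly in the ovary, for which both survival and death activities have been described in mice. Its FPKM was 3808, 4244, 2286 and 2714 in NP replicates 1 to 4 and 5191, 3571, 4197 and 2706 in P replicates 1 to 4. The datasets overlapped, with the lowest value in NP replicate 3 and the highest in P replicate 1. The NP mean was 3263 ± 916 and the P mean 3916 ± 1047 (SD, n = 4 each), a P/NP ratio of 1.20. On the log2(FPKM + 1) scale the difference was 0.27 (standard error 0.52, limma adjusted p = 0.828), with a 95% interval from −0.85 to 1.38, so that differences between 0.556-fold and 2.61-fold remained within the error. An exact permutation test over the 70 assignments of the 8 libraries (2-sided, smallest possible p 0.029) gave p = 0.457. After centring each library on its median, which added 0.96 to the log2 difference of every gene, Bcl2l10 was higher in P by 1.225 (standard error 0.52, limma adjusted p = 0.200), and after quantile normalization the difference was −0.00053. Ranked by FPKM within each library, Bcl2l10 took places 8, 5, 7 and 14 among all genes in NP and places 9, 5, 3 and 27 in P, of 9139 to 13753 genes above 0. Between 6727 and 29761 steps stood behind each value, and none of the 1190 stretches of 31 bases in its transcript occurred in a transcript of another gene.

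In maturing oocytes, translation of many stored mRNAs follows cytoplasmic polyadenylation, for which CPEB proteins bind a uridine-rich cytoplasmic polyadenylation element (CPE) near the polyadenylation signal at the 3′ end. The last 100 bases of the annotated transcripts (GENCODE M21, GRCm38, 1 transcript per gene, sense strand only) were therefore searched for the CPE forms TTTTAT and TTTTAAT and for the signals AATAAA and ATTAAA, counted separately although the forms may share bases. Of the 10 family genes, 9 held a signal, the exception being Bid, and 1, Bcl2l10, held a CPE form. The Bid transcript searched ended 924 bases short of the end of the gene as quantified, so that end was not searched. Of 17578 genes with a 3′ untranslated region of at least 100 bases, 78.6% held a signal, 17.9% a CPE form and 14.4% both. The Bcl2l10 window is shown beside those of 4 other detected members because it carries the CPE form 42 bases before the annotated end of the transcript. Each window holds 28 bases in the 5′ to 3′ direction of the mRNA, in the 3′ untranslated region, up to the last base of the signal, with capitals marking the CPE form and the signal.
Bcl2l10 (chr9:75351590-75351617, plus strand): tTTTTAATaacttcaaattcttAATAAA
Bcl2l1 (chr2:152780689-152780716, minus strand): gaaggtgaaagtgcagttcagtAATAAA
Mcl1 (chr3:95663136-95663163, plus strand): cttctgtttcttctgaagagaaAATAAA
Bax (chr7:45461718-45461745, minus strand): aatggtggcctggggaggcgccAATAAA
Bad (chr19:6951852-6951879, plus strand): ggtcgcgagaaacgtgctttatAATAAA
A match is a match of letters and not a measured site, and polyadenylation was not measured in these libraries.

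Bcl2l1, on chromosome 2 from 152780668 to 152831728 on the minus strand, encodes BCL-XL and, by alternative splicing, the shorter death-promoting BCL-XS, which values per gene cannot tell apart. Its FPKM was 28.4, 86.4, 40.9 and 62.4 in NP replicates 1 to 4 and 28.1, 84.95, 57.8 and 35.7 in P replicates 1 to 4. Both datasets spanned almost the same range, with replicate 1 lowest and replicate 2 highest in each. The NP mean was 54.5 ± 25.5 and the P mean 51.6 ± 25.5 (SD, n = 4 each). The log2 difference was −0.09 (standard error 0.62, limma adjusted p = 0.958) with a 95% interval from −1.42 to 1.25, and its sign changed with the scaling between libraries and with single libraries left out. Between 416 and 2172 steps stood behind each value. The Bcl2l10 FPKM was 43.5 to 134 times that of Bcl2l1 in NP and 42.0 to 185 times in P, overlapping ranges of a ratio that does not depend on the scaling of a library.

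Mcl1, on chromosome 3 from 95658721 to 95663176 on the plus strand, encodes a short-lived anti-apoptotic protein. Its FPKM was 1.53, 0.662, 3.07 and 4.50 in NP replicates 1 to 4 and 0, 0, 0.516 and 0.429 in P replicates 1 to 4. Each NP library lay above each P library, although the lowest NP value, in replicate 2, rested on 3 steps with a step length of 3485 bases, found from the values. Non-overlap with NP above P was found for 846 of the 14292 genes tested (5.92%), against 51 (0.357%) with P above NP. The NP mean was 2.44 ± 1.69 and the P mean 0.236 ± 0.275 (SD, n = 4 each), an NP/P ratio of 10.3 that became 17.1 without P replicate 3 and 7.43 without NP replicate 4. The log2 difference was −1.36 (standard error 0.56, unadjusted p = 0.0284 and adjusted p = 0.456 from limma), and an exact permutation test gave p = 0.029, the smallest it can give. NP was higher in 4 of 4 same-numbered pairs, for which the exact permutation p was 0.125, the smallest that 4 pairs can give. The 0 values in P replicates 1 and 2 allow up to 3 steps, or 0.183 and 0.269 FPKM at that step length, counting error only. Relative to Bcl2l10 in the same library, Mcl1 was at 0.156 to 1.66 per 1000 FPKM in NP and at 0 to 0.158 in P, ranges that met at NP replicate 2 and P replicate 4.

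Bcl2, on chromosome 1 from 106538178 to 106714274 on the minus strand, the founding anti-apoptotic member, was at 0 in all 8 libraries. With its annotated exon length of 9157 bases, 3 steps correspond to 0.0431 to 0.252 FPKM in NP libraries and 0.0697 to 0.122 FPKM in P libraries, and the 0 values allow a level up to these limits, counting error only. It did not pass the filter on low values and was not tested.

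**Figure D2:**
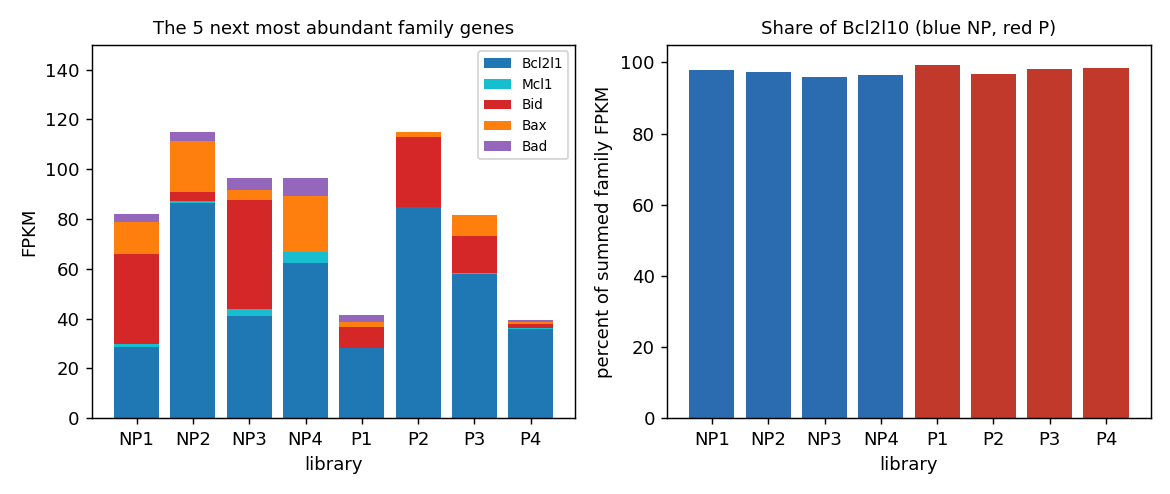
Left, stacked FPKM of Bcl2l1, Mcl1, Bid, Bax and Bad in each library; right, share of Bcl2l10 in the FPKM summed over the 10 family genes (percent). The share of Bcl2l10 ran from 96.0% to 97.9% in NP libraries and from 96.9% to 99.2% in P libraries.

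Of the FPKM summed over the 10 family genes, Bcl2l10 held 96.9% ± 0.855 in NP and 98.2% ± 0.993 in P (SD, n = 4 each). The 6 death-promoting members together summed to 52.2, 27.9, 52.5 and 29.7 FPKM in NP replicates 1 to 4 and to 13.2, 30.7, 23.4 and 3.21 FPKM in P replicates 1 to 4. These ranges overlapped through P replicate 2, and the sum of the 4 anti-apoptotic members, 2330 to 4331 FPKM in NP and 2742 to 5219 FPKM in P, was set by Bcl2l10.

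Bax, on chromosome 7 from 45461695 to 45466898 on the minus strand, encodes a pore-forming protein that moves from the cytosol to mitochondria in dying cells. Its FPKM was 12.6, 20.4, 3.79 and 22.3 in NP replicates 1 to 4 and 1.96, 2.15, 8.54 and 0.859 in P replicates 1 to 4. The datasets overlapped through replicate 3 alone, which was the lowest in NP and the highest in P. The NP mean was 14.8 ± 8.42 and the P mean 3.38 ± 3.49 (SD, n = 4 each), an NP/P ratio of 4.37 that became 8.91 without P replicate 3. The log2 difference was −1.90 (standard error 0.89, adjusted p = 0.502 from limma), and an exact permutation test gave p = 0.0571. A step length of 869 bases, found from the values, put between 2 and 147 steps behind each value. On the same strand Bax shares 915 bases with Gm45808, and 184 of its 1658 stretches of 31 bases (11.1%) also occur in other genes, to which reads of these stretches could equally belong.

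Bak1, on chromosome 17 from 27019810 to 27029009 on the minus strand, the other main pore-forming gene, was above 0 in 1 library of each dataset. These were NP replicate 3 with 0.0571 FPKM, a single step, and P replicate 2 with 0.518 FPKM, or 4 steps. It passed the filter through P replicate 2 alone, and its log2 difference of 0.13 (standard error 0.21, adjusted p = 0.797 from limma) rested on that library. The opposite strand carries Ggnbp1, which covers the whole Bak1 locus and had a mean of 4.55 FPKM in NP and 3.65 in P, and the libraries were made with a kit that does not mark strand, so reads of the shared bases cannot be told apart. Bok, on chromosome 1 from 93685694 to 93695762 on the plus strand, which encodes the related pore former abundant in reproductive tissues, had 0.184 FPKM in NP replicate 4 and 0 in the other 7 libraries.

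Bid, on chromosome 6 from 120891930 to 120916853 on the minus strand, encodes the BH3-only protein that caspase-8 cleaves into an active fragment. Its FPKM was 36.2, 3.69, 43.7 and 0 in NP replicates 1 to 4 and 8.45, 27.9, 14.9 and 1.79 in P replicates 1 to 4. Libraries of the same dataset differed far more than the datasets did, from no step in NP replicate 4 to 1129 steps in NP replicate 3. The NP mean was 20.9 ± 22.3 and the P mean 13.2 ± 11.1 (SD, n = 4 each), whereas the mean of log2 values was higher in P by 0.16 (standard error 1.20, adjusted p = 0.959 from limma), so the direction depends on how the libraries are averaged. Its annotated end overlaps that of Bcl2l13 on the opposite strand, and 599 of the 3542 stretches of 31 bases in Bid transcripts (16.9%) also occur in those of Bcl2l13. Bcl2l13, at 54.6, 23.2, 72.6 and 14.3 FPKM in NP replicates 1 to 4, followed the same order as Bid there, while in P, at 56.6, 38.8, 48.5 and 41.7 FPKM, it did not; its part in the Bid values was not tested.

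Bad, on chromosome 19 from 6941861 to 6951898 on the plus strand, encodes a BH3-only protein that survival signals switch off by phosphorylation. Its FPKM was 3.43, 3.83, 4.93 and 7.22 in NP replicates 1 to 4 and 2.76, 0, 0 and 0.558 in P replicates 1 to 4. Each NP library lay above each P library, and P replicate 1 came nearest to the NP range. The NP mean was 4.85 ± 1.70 and the P mean 0.8287 ± 1.31 (SD, n = 4 each), an NP/P ratio of 5.86 that became 26.1 without P replicate 1. The log2 difference was −1.87 (standard error 0.77, unadjusted p = 0.0285 and adjusted p = 0.456 from limma), and an exact permutation test gave p = 0.029, the smallest it can give. NP was higher in 4 of 4 same-numbered pairs (exact permutation p = 0.125, the smallest possible with pairs). Between 10 and 110 steps stood behind the NP values and between 0 and 26 behind the P values, with a step length of 2007 bases, found from the values. The datasets also remained apart relative to Bcl2l10 in the same library, at 0.902 to 2.66 per 1000 FPKM in NP and 0 to 0.531 in P. Bad shares bases with Gpr137 on the opposite strand, and 489 of the 2652 stretches of 31 bases in Bad transcripts (18.4%) also occur in those of Gpr137. The Gpr137 FPKM was 58.5, 98.7, 51.9 and 39.7 in NP replicates 1 to 4. In P replicates 1 to 4 it was 16.4, 8.68, 75.4 and 83.4, and the part of Gpr137 in the Bad values was not tested.

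Bbc3, on chromosome 7 from 16309616 to 16318205 on the plus strand, which encodes PUMA, a BH3-only protein induced by p53, had 0.155 FPKM in P replicate 2 and 0 in the other 7 libraries. Bok, Bcl2 and Bbc3 thus lay below the filter on low values in both datasets. With the annotated length of Bbc3, 3 steps would correspond to 0.186 to 1.09 FPKM in NP, but this length did not give whole steps for its value.

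**Figure D3:**
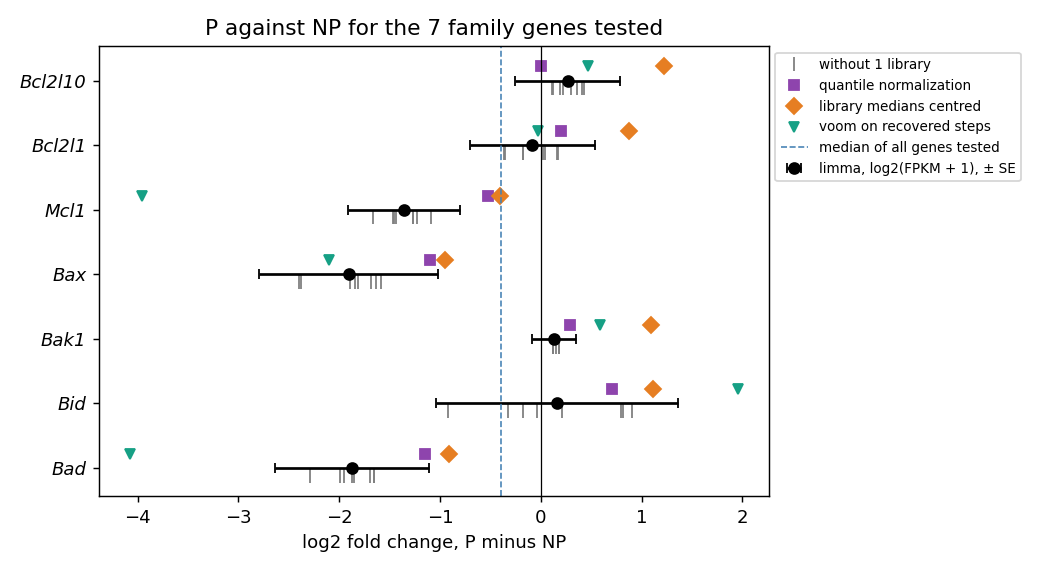
Log2 fold change of P over NP for the 7 family genes tested, from limma on log2(FPKM + 1) with its standard error (black), with each of the 8 libraries left out in turn (grey ticks), after 2 other scalings (squares and diamonds) and from recovered steps with voom (triangles). Mcl1, Bax and Bad lie below 0 under every setting drawn, and Bcl2l1, Bcl2l10 and Bid change sign under at least 1 setting. Bak1 lies above 0 where drawn, but it fell below the filter without P replicate 2, on which its limma value rests. Its diamond also holds the 0.96 that centring on library medians added to every gene.

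Ordered by mean FPKM, both datasets gave Bcl2l10, Bcl2l1, Bid, Bax, Bad and Mcl1, followed by Bok and Bak1 in NP and by Bak1 and Bbc3 in P. No library of Bcl2l1 reached one of Bcl2l10, and in P the lowest Bcl2l1 library, at 28.1 FPKM, stood just above the highest Bid library, at 27.9 FPKM. Every other pair of neighbours from Bcl2l1 to Mcl1 overlapped between libraries, in NP and in P. The median log2 difference of the 7 family genes tested was −0.09 and that of all 14292 genes tested was −0.39, which moved to −0.02 after quantile normalization and to 0.57 after centring each library on its median. Mcl1, Bax and Bad kept their negative differences under both scalings, at −0.52, −1.10 and −1.15 after quantile normalization, whereas 0 family genes then had an unadjusted p below 0.05 (limma). With medians centred, which added 0.96 to the log2 difference of every gene, Mcl1 and Bad were at −0.40 and −0.91. The 2 family genes at an unadjusted p below 0.05 (limma) were Bcl2l10 and Bak1, both higher in P, in place of Mcl1 and Bad. Before centring, Bcl2l10 and Bak1 were at 0.27 and 0.13, and Bak1 was above 0 in only 1 library of each dataset. At that p were 2896 of all 14292 genes tested with medians centred and 942 after quantile normalization.

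The pathway around the family was described by 49 other genes in 9 lists, of which 43 passed the filter on low values. None passed the adjusted threshold in limma, and 4 had an unadjusted p below 0.05, all higher in NP, a direction found for 9.47% of all genes tested. These were Bik, Casp8, Bcl2l11 and Htra2, the last 2 being named after their values had been seen. The median log2 difference of the 43 genes was −0.19, with 17 above 0 and 26 below. These counts were 27 and 16 after quantile normalization and 35 and 8 with medians centred. Centring turned each difference between −0.96 and 0 positive by construction. Libraries did not overlap for 3 of the 43 with NP above P and for 1 with P above NP. Of all genes tested these shares were 5.92% and 0.357%.

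Among the other BH3-only genes, 5 of 7 were tested and all 5 had negative differences, against 3 after quantile normalization and 2 with medians centred. Bik had 9.30, 34.3, 10.5 and 39.0 FPKM in NP replicates 1 to 4 and 1.81, 1.65, 0.239 and 7.13 FPKM in P replicates 1 to 4, with no overlap. Its log2 difference was −2.78 (standard error 0.89, adjusted p = 0.405 from limma). Bnip3l, whose product is a receptor for mitophagy, averaged 22.2 ± 7.81 FPKM in NP and 20.7 ± 12.3 FPKM in P (SD, n = 4 each). Of the other anti-apoptotic genes, 2 of 5 were tested, and Bcl2l12, at 0.350 FPKM in NP and 0.918 in P, and Bcl2l2, at 0.206 and 0.0504 FPKM, were near the filter. Both BCL2-like genes tested, of 3 listed, were positive. Bcl2l13, a mitophagy receptor of the outer membrane, had a log2 difference of 0.42 (standard error 0.65), and the Bcl2l15 mean of 10.9 FPKM in P rested on P replicate 2.

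Casp8, the initiator caspase of death receptors that cleaves BID, had the lowest log2 difference of the genes named, −4.0 (standard error 1.06, adjusted p = 0.376 from limma). Its FPKM was 10.5, 38.8, 190 and 6.02 in NP replicates 1 to 4 and 0.920, 2.70, 0.162 and 0.134 in P replicates 1 to 4. The datasets did not overlap, and NP replicate 3 alone held most of the NP sum. Casp2 had 14.3 ± 8.62 FPKM (SD, n = 4) in NP and 18.6 ± 21.8 in P. All 8 genes of apoptosome and caspases were tested, with 4 differences above 0 and 4 below, against 5 and 3 after quantile normalization and 7 and 1 with medians centred. Of the 6 released mitochondrial factors and nucleases, Endog, a mitochondrial nuclease, was at 58.4 ± 44.5 FPKM in NP and 28.3 ± 26.0 in P, and Diablo, which antagonizes inhibitors of apoptosis, at 27.1 ± 2.83 and 31.9 ± 38.2 (SD, n = 4 each).

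The inhibitors of apoptosis gave 4 positive differences of 5, and 5 of 5 under both other scalings. With medians centred this was fixed by the 0.96 added to every gene, as the lowest difference, that of Birc5, was −0.25. Birc3 was the most abundant of them, at 166 ± 65.7 FPKM in NP and 178 ± 18.3 in P (SD, n = 4 each). Birc6, a large inhibitor with ubiquitin ligase activity, had 13.9, 10.5, 14.8 and 5.04 FPKM in NP replicates 1 to 4 and 20, 30.6, 56.6 and 22.4 FPKM in P replicates 1 to 4. It was the 1 gene of the lists whose P libraries all lay above the NP libraries, found for 51 of the 14292 genes tested (0.357%). Its log2 difference was 1.44 (standard error 0.68, adjusted p = 0.504 from limma). Birc5, or survivin, which also serves the chromosomal passenger complex, was at 35.0 ± 30.2 FPKM in NP and 26.4 ± 17.05 in P.

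Among outer membrane channels and BAX inhibitors, Vdac3 was at 92.0 ± 50.0 FPKM in NP and 104 ± 72.0 in P, and Tmbim6 at 93.5 ± 24.1 and 147 ± 76.8 (SD, n = 4 each). Of the 4 genes linked to the turnover of MCL1 protein, Usp9x, a deubiquitinase that stabilizes MCL1, had 24.8 ± 17.4 FPKM in NP and 49.6 ± 10.0 in P, a log2 difference of 1.15 (standard error 0.63, adjusted p = 0.538 from limma). Bag6, a chaperone, was at 13.1 ± 5.14 and 6.24 ± 4.39 FPKM. In the p53 family list, 4 of 5 differences were negative, against 3 after quantile normalization and 2 with medians centred. Mdm4 and Mdm2, whose products restrain p53, were at 256 ± 151 and 27.1 ± 8.96 FPKM in NP and at 223 ± 106 and 22.3 ± 16.9 in P. Trp73, at 1.56 ± 1.66 FPKM in NP and 0.153 ± 0.133 in P, did not overlap between the datasets, with a log2 difference of −0.97 (standard error 0.46, adjusted p = 0.508 from limma).

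**Figure D4:**
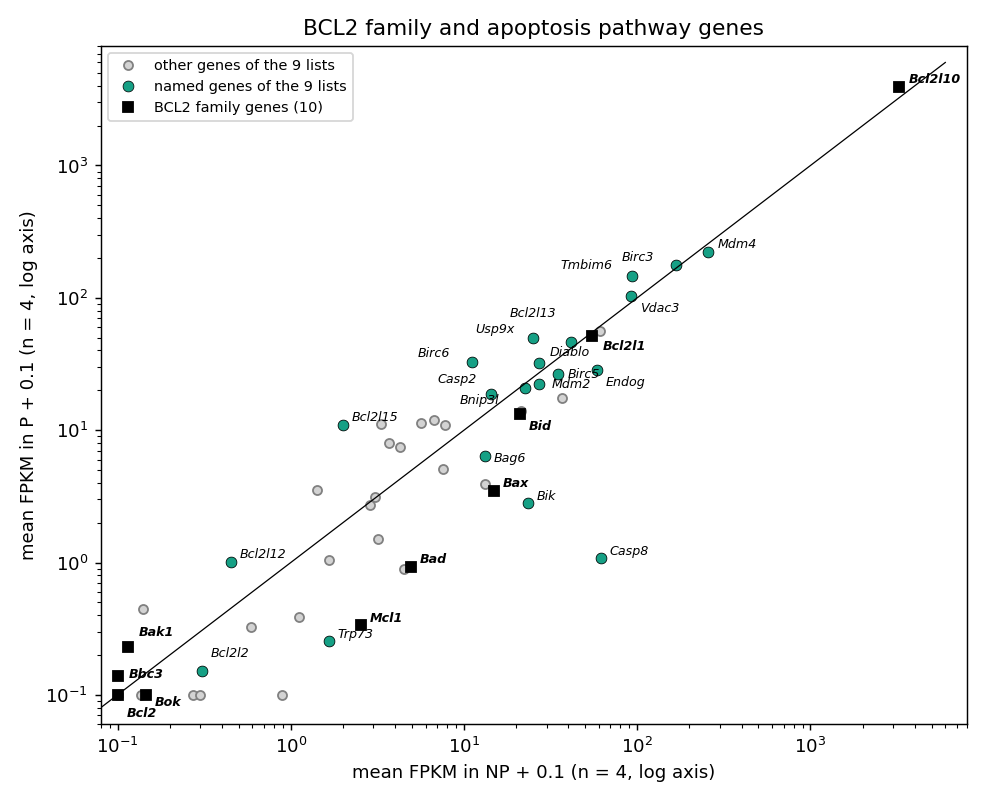
Mean FPKM + 0.1 in P against that in NP (n = 4 libraries each, both axes log) for the 10 BCL2 family genes (black squares), the named genes of the 9 pathway lists (green) and the other genes of these lists (grey), with the line of equal values. Bcl2l10 lies above all pathway genes, and Casp8, Bik, Mcl1, Bax and Bad lie on the NP side.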

How the data were processed

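Reads had been trimmed by the authors (Trim Galore 0.4.1), aligned to GRCm38 (HISAT2 2.0.5) and quantified in Seqmonk, and the deposited FPKM values are linear, with no further scaling between libraries. Deposited tables of mean ratios and of DESeq2 results hold the authors' own comparison and were not used. Datasets and replicate numbers came from the titles. P and NP were compared 2-sided with limma 3.58.1 in R 4.3.3 (eBayes with a trend, tested on simulated data) on log2(FPKM + 1), a scale that understates changes of low genes. Genes entered with a mean above 0.1 FPKM in either dataset, and the Benjamini-Hochberg threshold was 0.1. Steps were recovered for 13782 of the 15585 genes above 0 (88.4%), within 0.01 of a step plus 2e-06 of their number, from GENCODE M21 exon lengths or from a length searched between 100 and 30000 bases. The shortest length that fitted was taken, so steps from a searched length are the fewest that fit. Steps may be reads or fragments, and amplified cDNA without molecular identifiers does not count independent molecules, so limits cover counting error only. Named were all family genes and, per list, the 2 most abundant genes and any gene whose libraries did not overlap and whose mean exceeded 1 FPKM. Members and lists were chosen with earlier results of these data known. Alternatives were the pseudocount, the filter, the scaling, voom on steps, a replicate block and leaving out single libraries.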

Additional observations from a re-analysis of the deposited data

Results flagged for a closer look

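Within a dataset of 4 libraries, the highest value stood apart from the other 3 (by Dixon's 95% value for the gap over the range) for 11 of the 58 groups of 4 values examined. In 6 of the 11 the other 3 values were 0, which forces the flag, so the count cannot be set against the about 1 in 20 groups that chance flags. Among the family genes these were Bax in P replicate 3 (8.54 FPKM), Bak1 in NP replicate 3 (0.0571 FPKM) and in P replicate 2 (0.518 FPKM), Bok in NP replicate 4 (0.184 FPKM) and Bbc3 in P replicate 2 (0.155 FPKM), of which Bak1, Bok and Bbc3 were at 0 in the other libraries of the dataset. Among the pathway genes they were Bcl2l2 in P replicate 3 (0.202 FPKM, the other 3 at 0), Bcl2l15 in P replicate 2 (43.1 FPKM), Birc3 in P replicate 1 (205 FPKM), Usp9x in NP replicate 3 (50.8 FPKM), Trp73 in NP replicate 2 (4.03 FPKM) and Casp6, named after its values had been seen, in P replicate 1 (1.397 FPKM, the other 3 at 0).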

How the results depend on the processing

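Among the 7 family genes 0 passed the adjusted threshold in limma under any of the 15 other fits, with 0 to 3 at an unadjusted p below 0.05 (0 without P replicate 2 and after quantile normalization). These were Mcl1, Bad or Bax, all higher in NP, except with medians centred, where they were Bcl2l10 (1.225) and Bak1 (1.088), both higher in P. Centring added 0.96 to the differences of Bcl2l10 and Bak1, which were 0.27 and 0.13 without it. Over all genes 3 passed, against 5 with a pseudocount of 0.1, 5 with a mean FPKM above 1, 0 without a filter on low values, 0 after quantile normalization, 0 with library medians centred, 118 with voom on recovered steps (117 higher in NP) and 0 to 5 with single libraries left out. The 4 pathway genes at an unadjusted p below 0.05, all higher in NP, stood against 11 with medians centred, 10 of them higher in P and Casp8 alone higher in NP, 7 without a filter (2 higher in P, 5 in NP) and 2 to 5 with single libraries left out. Of all genes tested, 2896 of 14292 were at that unadjusted p in limma with medians centred and 942 after quantile normalization. Without a filter 1510 of 15585 were, and with single libraries left out 1098 to 1598 genes. The order of the family genes moved by 6 places with medians in place of means and by 0 to 4 places with single libraries left out. Mcl1 (−3.95 to −0.40), Bax (−2.40 to −0.95) and Bad (−4.08 to −0.91) kept negative log2 differences under all 16 alternatives.

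Direction changed as follows. Centring added 0.96 to every gene, so that each difference between −0.96 and 0 turned positive by construction, and the log2 difference was then 0.87 for Bcl2l1, 0.77 for Bcl2l2, 0.73 for Bnip3l, 0.29 for Diablo, 0.70 for Birc5, 0.82 for Mdm4 and 0.49 for Mdm2. After quantile normalization it was 0.20 for Bcl2l1, −0.00053 for Bcl2l10, 0.10 for Bcl2l2, 0.18 for Bnip3l, 0.18 for Birc5 and 0.0102 for Mdm4. With voom it was −0.0168 for Bcl2l15 and −0.18 for Casp2, and as a ratio of means −0.66 for Bid and 0.24 for Diablo. With single libraries left out it ran from −0.36 to 0.17 for Bcl2l1, −0.92 to 0.91 for Bid, −0.55 to 0.14 for Bnip3l, −0.91 to 0.92 for Bcl2l15, −0.63 to 0.61 for Casp2, −1.45 to 0.23 for Diablo, −0.63 to 0.25 for Birc5, −0.35 to 0.45 for Vdac3 and −0.51 to 0.27 for Mdm4. Causes other than the centring were not tested.

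In a fit blocked by replicate, 1 gene passed in place of 3, and 0 of the family. Deviations of same-numbered libraries correlated at 0.1387, 0.0518, 0.2508 and 0.1547 over 11374 genes, and of other numbers at −0.1353 to 0.1355. The 4 P libraries and 3 of the 4 NP libraries correlated best with their own number, and NP replicate 2 with P replicate 1. An exact permutation within same-numbered pairs, added after seeing the data, gave p = 0.125 for Mcl1 and Bad and 0.25 to 1 for the other 5 family genes tested.

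Depth limits Bcl2 and Bak1, which rested on few or no steps, and Bok and Bbc3, for which steps were not recovered.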
